A study of Homo sapiens with 4 samples.

Results

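Replication-dependent histone transcripts were taken as the protein-coding genes of GENCODE release 44 whose symbol begins with H2AC, H2BC, H3C or H4C and a digit, or is H1-1, H1-2, H1-3, H1-4 or H1-5. The names gave 69 of the 20033 protein-coding genes with a coding canonical transcript outside the mitochondrial chromosome, and no measured value was used to choose them. The 69 genes comprised 5 for the linker histone H1, 17 for H2A, 19 for H2B, 13 for H3 and 15 for H4. Of these genes, 54 lie on chromosome 6, 13 on chromosome 1, and 1 each on chromosomes 12 and 21.

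The series asked which RNAs are touched by poly(PR), a proline-arginine dipeptide repeat protein made from the expanded C9orf72 repeat of amyotrophic lateral sclerosis and frontotemporal dementia. HEK293T cells, a transformed human embryonic kidney line, were transiently transfected with a plasmid for PR100-FLAG, a chain of 100 such dipeptides with a triple FLAG tag, so the peptide was overexpressed from a construct. Expression was induced for 24 h with 150 ng/ml doxycycline, and the cells were irradiated at 160 mJ/cm2 with UV light, which joins proteins to the RNA that they touch. All 4 iiCLIP libraries were of this 1 condition. Complexes were purified by SDS-PAGE in replicates 1 to 3 and by immunoprecipitation with beads in replicate 4, and the random barcode that separates cDNA molecules from PCR copies was 5 nt long in replicate 3 and 7 nt long in the others. GA100 and control samples were not analysed here, so no value below has a background measured in cells without crosslinked PR100. iiCLIP maps contacts through the reverse transcriptase, which halts where peptide is still joined to the RNA. The base just upstream of each cDNA was therefore taken as crosslinked, and each unique cDNA counted as 1 crosslinking event. Events are given as counts or as CPM, the count scaled to 1000000 events in the library. RNA abundance was not measured, so more binding and more RNA cannot be told apart.

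Replication-dependent histone mRNAs are made in S phase to supply the chromatin of newly copied DNA. They lack introns and are not polyadenylated: the pre-mRNA is cut a few nucleotides after a conserved stem-loop, which SLBP binds to direct processing, translation and decay of the mRNA. H2A, H2B, H3 and H4 form the nucleosome core, whereas H1 binds the DNA between nucleosomes and carries a long tail rich in lysine.

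The stem-loop ends are printed first because they define the 3′ ends used here. The 16-nt stem-loop was found in 68 of the 69 members, in 65 with no mismatch to the motif and in 3 with 1 mismatch. H2BC12L had none, and its annotated end was used. Each mature mRNA was taken to end 5 nt after the stem-loop, and the stem-loop end denotes its last 26 nt. The ends of the member with most events in each class are shown 5′ to 3′ on the strand of the gene (GRCh38), with the stem-loop in capitals.

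H1-4, chr6:26157090-26157115, plus strand: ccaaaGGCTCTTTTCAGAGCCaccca
H2AC12, chr6:27147541-27147566, plus strand: acaaaGGCTCTTTTCAGAGCCattct
H2BC5, chr6:26158582-26158607, plus strand: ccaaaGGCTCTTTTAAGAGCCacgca
H3C2, chr6:26031592-26031617, minus strand: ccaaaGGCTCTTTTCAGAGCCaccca
H4C16, chr12:14770719-14770744, minus strand: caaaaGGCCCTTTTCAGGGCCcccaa

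The 68 stem-loops had 10 distinct sequences. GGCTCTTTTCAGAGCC was shared by 40 members of H1, H2A, H2B and H3. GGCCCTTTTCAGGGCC was found in 10 members, all of H4. The mature mRNAs of the 69 members summed to 34.01 kb, of which 27.22 kb was coding sequence (CDS).

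The libraries held 334057, 604816, 125694 and 179636 events in replicates 1 to 4. Replicate 3 stood apart on the histone mRNAs. Its 84 histone events lay on 20 positions, or 4.2 events per position, against 1.52, 1.83 and 1.11 in replicates 1, 2 and 4. Over the whole libraries the values were 1.47, 1.67, 2.16 and 1.15 events per position. In H1-4, the 2 positions with most events held 58.1% of the 31 events of replicate 3. Results that changed with replicate 3 are therefore also given without it. Nothing in the labels says that the replicates came from separate cultures, so the spread and the p-values below describe these 4 libraries and may be technical. Comparisons over the libraries used a sign-flip permutation test, exact and two-sided. With 4 libraries it cannot give a p below 0.125, so no comparison below could pass a threshold of 0.05.

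Histone mRNAs received 1309 events in the 4 libraries together, and H1 mRNAs received most of them. Replicates 1 to 4 held 166, 742, 84 and 317 histone events, which is 497, 1227, 668 and 1765 CPM. The mean was 1039 ± 575 CPM (SD, n = 4). Replicate 4 was highest and replicate 1 lowest. As a share of all CDS events of a library, histone CDS events made up 0.326%, 0.558%, 0.418% and 0.488%, with a mean of 0.448% ± 0.0992 (SD, n = 4). By this measure replicate 4 lay within the range of the SDS-PAGE libraries, while its CPM was 2.21 times the mean of theirs. With a single library of beads, no test of the purification was possible.

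Of the 69 members, 44 (63.8%) had at least 1 event in the mature mRNA, against 68.4% of all protein-coding genes. Only 8 members (11.6%) had an event in each of the 4 libraries, against 16.4% of all genes. The median member had 4 events, which was also the median of all protein-coding genes. Most members thus had few events, and a few stood far above the rest. The gene spans of 2 members held 200 or more events, namely H1-4 and H1-2. This was 2.9% of the members, against 3.49% of all protein-coding genes. Without replicate 2 or without replicate 4, H1-4 alone reached 200 events. The same 2 members were the only ones with 100 or more events, against 12% of all genes, and 16 members (23.2%) had 20 or more, against 45.3%. These shares were not adjusted for the length of the gene span.

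H1-4 (ENSG00000168298.7, chr6:26156329-26157115, plus strand), a linker histone gene, had the most events of all members. Its 496 events were 71, 275, 31 and 119 in replicates 1 to 4, which is 213, 455, 247 and 662 CPM and a mean of 394 ± 208 CPM (SD, n = 4). It was the member with most events in every library. H1-2 (ENSG00000187837.4, chr6:26055739-26056470, minus strand), another linker histone gene, had 230 events, with 28, 141, 4 and 57 in replicates 1 to 4. The 4 events of replicate 3 in H1-2 lay on 1 position. H1-4 and H1-2 together held 55.5% of the histone events. H1-3 had 12, 36, 0 and 18 events, 66 in all.

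The other H1 genes had almost none. H1-1 had 1 event and H1-5 had 0, although 100% and 98.2% of their positions were followed by 30 nt that occur once in the genome, so that reads could be placed there. A count of 0 allows up to 3 events, or 8.98, 4.96, 23.9 and 16.7 CPM in replicates 1 to 4. H1-4 and H1-2 lay above these limits in each library. The plot of events by member leaves out H1-1 and H1-5, since it shows only members with at least 10 events.

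Per kilobase of CDS, H1-4 ranked near the top of the whole set. Its CDS held 664 pooled events per kb, the rank of 3 among the 3026 protein-coding genes with at least 20 CDS events, whose median was 16.7 events per kb. H1-2 had 333 events per kb and the rank of 11. H2BC5, H2AC12 and H1-3 followed with 91.9, 90.4 and 90.1 events per kb and the ranks 87, 90 and 92. Ranks carry no test, and only 8 members had enough CDS events to be ranked. A short CDS reaches 20 events only at a high density, so the floor itself partly sets the ranks of the members. H4C5, with 19 CDS events and 60.9 per kb, was not ranked.

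Among core histone genes the counts were small. H2AC12 had 7, 21, 0 and 10 events in replicates 1 to 4, H2AC11 had 4, 14, 1 and 5, and H2AC6 had 1, 14, 4 and 4. Of the H2B genes, H2BC5 had 1, 22, 0 and 14 events, H2BC21 had 6, 23, 0 and 7, and H2BC17 had 3, 15, 0 and 2. Replicate 2, the deepest library, gave most of these events, and replicate 3 gave none in 4 of these 6 genes. H3C2 had 7, 16, 0 and 9 events, while the next H3 genes, H3C10 and H3C12, had 11 and 8 in all. H4C16, an H4 gene that stands alone on chromosome 12, had 0, 8, 15 and 1 events, so 15 of its 24 events came from replicate 3. H4C5 had 0, 14, 4 and 3 events, and H4C8 had 0, 4, 7 and 4.

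Mappability and overlapping genes bear on these counts. Of the mature positions of all members, 73.9% were followed by 30 nt that occur once in the genome, and 6.88% of the events lay elsewhere. Of the 25 members without an event, 14 had over 90% such positions and 5 had under 1%, so for the latter an absence of events says nothing. In addition, 15 members lie partly or wholly inside another annotated gene on the same strand, and 613 histone events (46.8%) lay at such positions. H1-4 lies wholly inside a gene model that spans many histone genes of chromosome 6. In the 250 nt before the H1-4 mRNA there were 11 events (44 per kb), and in the 250 nt after it there were 0, against 664 events per kb of its CDS. Over all members, the 250 nt upstream held 24 events and the 250 nt downstream 11.

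Along H1-4, events covered the whole CDS and the 5′ UTR, as the profiles of the H1 mRNAs show. The 62 nt of its 5′ UTR held 46 events, the 660 nt of CDS 438 and the 65 nt of 3′ UTR 12. With the CDS cut into 10 equal segments, H1-4 had most events in segment 7 (69 events, with 13, 39, 2 and 15 in replicates 1 to 4) and fewest in segment 10 (22 events). H1-2 was less even. Its segments 6, 7 and 8 held 46, 40 and 38 of 214 CDS events, and each other segment held 24 or fewer. The lysine codons AAG and AAA, which fill the part for the tail of H1, were most frequent in segment 10, at 45.5% of codons in both genes. H1-2 had 14 events there and H1-4 had 22.

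The authors' clusters of significant crosslinked positions were called with iCount on these same counts, so they are not separate evidence. The pooled list had a cluster in 11 of the 69 members (15.9%), against 11.3% of all protein-coding genes. These were H1-2, H1-4, H2AC7, H2AC12, H2BC5, H2BC17, H2BC18, H2BC21, H3C10, H4C8 and H4C16. Of the 23 clusters in these genes, 10 lay in H1-4 and 3 in H1-2. The position with most events, or summit, was in the CDS for 21 clusters, in a 5′ UTR for 1 and in a 3′ UTR for 1. The lists of single libraries had 2, 12, 2 and 2 such clusters in replicates 1 to 4. The clusters of H4C16 and H4C8 rested on replicate 3, which gave 15 of 18 and 7 of 11 events. Without replicate 3, the pooled clusters that still held 10 events lay in 7 members, and without replicate 2, in 4.

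The sequences at 5 cluster summits are shown as examples from H1, H2B and H4, 5′ to 3′ on the strand of the gene (GRCh38), from 5 nt before the summit to 24 nt after it. GAAGA, the pentamer that the study examined, is in capitals.

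H1-2, chr6:26056046-26056075, minus strand, cluster of 94 events: caaggttaaaaaggcgggcggaaccaaacc
H1-4, chr6:26156747-26156776, plus strand, cluster of 43 events: ggctaaaaaggcaggcgcggccaaggccaa
H1-4, chr6:26156828-26156857, plus strand, cluster of 15 events: ccccaaGAAGAgcgccaaGAAGAccccaaa
H2BC5, chr6:26158196-26158225, plus strand, cluster of 17 events: tgccccaaagaagggctccaagaaggcggt
H4C16, chr12:14770984-14771013, minus strand, cluster of 18 events: ggacaatatccaaggcattacaaagccggc

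All of these windows lie in the CDS. The H1-2 cluster spanned chr6:26055968-26056071 and held 6, 60, 4 and 24 events in replicates 1 to 4, so each library contributed. The H1-4 cluster of 43 events held 6, 33, 0 and 4. GAAGA stood in 1 of the 23 summit windows (4.35%), the H1-4 window of 15 events. It was found in 12.1% of the windows of the same length at the 5508 pooled cluster summits whose sequence was read, and in 8.64% of such windows over all CDS positions of the members. No test was run on this count of 1.

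The H1 mRNAs had more events per kb of CDS than every core class in each library. The H1 density was 89.9, 204, 82.0 and 292 CPM per kb in replicates 1 to 4, with a mean of 167 ± 100 (SD, n = 4). H2A had 9.43, 20.3, 13.1 and 26.7 CPM per kb, H2B had 5.79, 22.1, 7.69 and 30.7, and H3 had 3.92, 7.74, 7.45 and 13.5. H4 had 2.57, 14.9, 32.4 and 11.9 CPM per kb. The H1 range did not overlap that of any core class. Over H2A, H2B, H3 and H4 together, H1 had the higher density in 4 of 4 libraries, by 3.45 ± 0.62 on the log2 scale (SD, n = 4), or 10.96-fold, and the exact sign-flip permutation test gave p = 0.125. All log2 ratios of density were computed with 0.5 events added to each count. The 4 class pairs with H1 each gave p = 0.125 by the same exact test, or 0.208 after Benjamini-Hochberg adjustment over 10 pairs.

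This difference rested on 3 of the 5 H1 genes, and mostly on H1-4. Without H1-4, the log2 ratio of H1 to core density was 2.05 ± 1.41 (SD, n = 4), above 0 in 3 of 4 libraries, and the exact permutation test gave p = 0.25. With all positions inside another gene left out, which removes H1-4 among others, it was 2.07 ± 1.34 (SD, n = 4), above 0 in 4 of 4. With the median over genes in place of the sum, it was 2.44 ± 2.18 (SD, n = 4) with p = 0.25 by the exact test. H1 is also easier to map: 99.2% of its CDS positions were followed by a unique 30-mer, against 67.0% for H2A, 59.2% for H2B, 74.9% for H3 and 70.9% for H4. Over such positions alone, the H1 density was still higher in 4 of 4 libraries, by 3.15 ± 0.66 on the log2 scale (SD, n = 4).

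The core classes were closer to each other, as the plot of CDS density by class shows. H2A lay above H3 in 4 of 4 libraries, by 1.07 ± 0.28 on the log2 scale (SD, n = 4), and H2B lay above H3 in 4 of 4, by 0.79 ± 0.66, of which replicate 3 gave 0.0087. For both pairs the exact permutation test gave p = 0.125, adjusted to 0.208. The order of H2A, H2B and H4 changed between libraries, and the 3 pairs among them gave exact p-values from 0.5 to 0.875. At positions followed by a unique 30-mer alone, the core pairs shifted. H2A then lay above H2B in 4 of 4 libraries, by 0.79 on the log2 scale, against 0.28 and 2 of 4 over all positions, whereas H2B lay above H3 by 0.41 in 3 of 4. H4 held 3.01%, 6.20% and 4.10% of the histone events in replicates 1, 2 and 4 but 31.0% in replicate 3. In that library, 15 of the H4 events were those of H4C16.

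Taken over all members, events covered the 5′ UTR and the CDS at like densities and were sparse in the 3′ UTR. The 5′ UTRs had 12.8, 38.8, 22.6 and 79.2 CPM per kb in replicates 1 to 4. The CDS had 15.9, 39.7, 22.2 and 54.8 CPM per kb. The 3′ UTRs, stem-loop end included, had 6.76, 9.54, 0 and 12.6 CPM per kb. In each library the 3′ UTR was the lowest, while the 5′ UTR was above the CDS in 2 of 4. The CDS held 87.2% of the histone events on 80.0% of the length. The likeness of 5′ UTR and CDS mixes the classes. Pooled, H1 had 224 events per kb in the 5′ UTR and 216 in the CDS, whereas core histones had 25.6 and 17.9. H1 made up 272 of the 2811 nt of 5′ UTR and 3297 of the 27216 nt of CDS.

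CDS density was above that of the 2 UTRs together in 4 of 4 libraries, by 0.81 ± 0.30 on the log2 scale (SD, n = 4), or 1.75-fold (exact sign-flip permutation test, p = 0.125). The classes differed. The log2 ratio was 0.83 ± 0.74 in H1 (SD, n = 4), above 0 in 4 of 4 libraries. In the core classes together it was 0.32 ± 0.36 (SD, n = 4), above 0 in 3 of 4 (exact permutation p = 0.25). H2A, H2B and H3 had 0.87, 0.62 and 0.45, each above 0 in 3 of 4, and H4 had 0.11, above 0 in 1 of 4. Replicate 3, with few UTR events, gave the highest ratio in H1, H2A, H2B and H3, at 1.94, 2.68, 2.01 and 1.23. Those values depend on the 0.5 events added. Replicates 1, 2 and 4 ranged from 0.41 to 0.55 in H1 and from -0.07 to 0.78 in H2A. They ranged from -0.52 to 0.85 in H2B and from -0.64 to 0.94 in H3. Over all members, the contrast between CDS and UTRs came from the 3′ UTR. Against the 5′ UTR alone the log2 ratio was -0.09 ± 0.34 (SD, n = 4; exact permutation p = 0.75), and the 5′ UTR lay above the 3′ UTR by 2.52 ± 1.55 (SD, n = 4), in 4 of 4 libraries with p = 0.125 by the exact test. Within the 3′ UTR it came from the end of the mRNA. The last 50 nt of the mature mRNAs, nearly all in the 3′ UTR, held 20 events, or 5.80 per kb. The 601 nt of 3′ UTR before them held 21 events, or 34.9 per kb. Much of that density came from H1-4, with 3 of the 21 events at nucleotide 661 from its start codon and 8 at nucleotide 667. Replicate 2 gave 7 of those 8. With the last 50 nt left out, the CDS to UTR log2 ratio was -0.02 ± 0.24 (SD, n = 4; exact permutation p = 1). Over all members, the log2 ratio thus lay near 0 outside the last 50 nt, which was not examined without H1-4. A cDNA that begins in these nucleotides must be short to map there, the shortest cDNA kept by the authors is not given in the sources used here, and its part in the result was not tested.

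Against the other protein-coding genes, the histone mRNAs had the smaller ratio of CDS to UTR density. The log2 ratio of the other 19964 genes was 1.41 ± 0.23 (SD, n = 4), and that of the histones was lower by 0.60 ± 0.47 (SD, n = 4), in 4 of 4 libraries (exact permutation p = 0.125). With the last 50 nt left out of both sets of genes, the histone ratio was lower by 1.41 ± 0.45 (SD, n = 4), in 4 of 4 libraries. Without positions inside another gene it was lower in 3 of 4, with a difference of -0.86 ± 0.75 (SD, n = 4; exact permutation p = 0.25). The direction depended on the genes compared. Against the 1048 other single-exon coding genes the difference was 0.79 ± 0.38 (SD, n = 4), above 0 in 4 of 4 libraries with p = 0.125 by the exact test, and against the 12 replication-independent histone genes it was 0.10 ± 0.29 (SD, n = 4; exact permutation p = 0.5). Of the 13 members with at least 20 events, 10 (76.9%) had more pooled events per kb in the CDS than in the UTRs, against 86.6% of all genes with at least 20 events.

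The stem-loop end was nearly free of events. Across the 1768 nt of stem-loop ends there was 1 event, in replicate 4, in H2BC21 with 1 nt of mature mRNA after it, and the 1088 nt of the stem-loops themselves held 0. At the pooled density of the CDS, 74.2 events would have fallen in the stem-loop ends. That density was 42.0 events per kb, but the H1 CDS had 216 and the core CDS 17.9. The H1 CDS are longer than the core CDS, so H1 weighs more in the CDS than in the stem-loop ends. This raises the expected count and the ratios below. The pooled density of the CDS was 74.2 times that of the stem-loop end, with an exact 95% interval of 13.3 to 2933 that covers counting error only. By library, the log2 ratio was 4.24, 6.41, 3.31 and 3.54, with a mean of 4.38 ± 1.41 (SD, n = 4; exact sign-flip permutation p = 0.125), above 0 in 4 of 4. With stem-loop ends at 0 in replicates 1 to 3, these ratios depend on the 0.5 events added.

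Just before the stem-loop end events were also fewer than at 50 to 99 nt, as the plot of events by distance to the 3′ end shows. A bin as low, with 4 events, lay farther inside the mRNA at 110 to 119 nt. After the single H2BC21 event, the next events to the end lay 26 nt (H1-3), 32 nt (H3C2), 32 nt (H4C14), 34 nt (H1-2) and 38 nt (H2BC15) from it. None of these lay inside a stem-loop end. Since a cDNA from the stem-loop end could be at most 26 nt long on a processed mRNA, absence of contact and absence of a mappable cDNA cannot be told apart. H2BC21 has an annotated 3′ UTR that goes on for 1724 nt past the stem-loop end, and this held 3 events, all in replicate 2.

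Within the CDS, no side held more events in every library. The log2 ratio of the density after the middle of the CDS to that before it was 0.74, 0.20, -1.28 and 0.27 in replicates 1 to 4, with a mean of -0.02 ± 0.88 (SD, n = 4; exact permutation p = 1). Replicate 3 alone was below 0, and without it the mean was 0.41 ± 0.29 (SD, n = 3), with p = 0.25 by the exact test, the smallest that 3 libraries allow. The 25 events of replicate 3 before the middle of the H1-4 CDS, against 5 after it, were part of this. With the CDS cut into 3 equal segments, H1 mRNAs averaged 133, 221 and 147 CPM per kb, H2A mRNAs 11.7, 13.3 and 27.1, and H2B mRNAs 25.9, 12.2 and 11.8. The middle segment was highest in H1 in replicates 2 to 4, and the last segment was highest in H2A in all 4 libraries. In H2B the first segment was highest in replicates 2 and 4 only.

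GANGA pentamers, which the study linked to PR100, were searched on the gene strand near the events, overlaps included. Those counted were GAAGA and its variants with G or C as the middle base. The share of histone CDS events with such a pentamer starting between 5 nt before and 30 nt after them was 25.5%, 28.2%, 11.8% and 34.3% in replicates 1 to 4. Of all histone CDS positions, 18.3% had one. Replicates 1, 2 and 4 lay above this share and replicate 3 below it. The share counts all positions alike, but H1 held 713 of the 1142 histone CDS events. A pentamer was near 20.8% of H1 CDS positions and 28.6% of H1-4 CDS positions. The comparison therefore mixes nearness to the pentamer with which genes held the events. The log2 ratio of the shares averaged 0.35 ± 0.67 (SD, n = 4; exact permutation p = 0.375). Without replicate 3 it was 0.67 ± 0.22 (SD, n = 3), above 0 in 3 of 3 libraries, and with each position counted once it was 0.60 ± 0.25 (SD, n = 4), above 0 in 4 of 4 with p = 0.125 by the exact test. GAAGA alone gave 0.88 ± 0.71 (SD, n = 4), above 0 in 3 of 4 libraries. A window from 30 nt before to 30 nt after the event gave 0.40 ± 0.14 (SD, n = 4), above 0 in 4 of 4. Some alternatives gave lower values, with 0.16 without replicate 4, 0.26 without replicate 2, 0.22 without positions inside another gene and 0.12 without H1-4.

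A difference from the other genes was not detectable with 4 libraries. The other coding genes had a log2 ratio of 0.60 ± 0.05 (SD, n = 4), with 29.9% of their CDS events near a GANGA pentamer against 19.7% of positions. The histone ratio minus theirs was -0.26 ± 0.62 (SD, n = 4), above 0 in 2 of 4 libraries (exact permutation p = 0.75), and 0.045 ± 0.20 (SD, n = 3) without replicate 3. It ranged from -1.16 in replicate 3 to 0.26 in replicate 4, so likeness is not shown either. H1-4 held 8 GANGA pentamers in its CDS, all GAAGA, and 32.2% of its CDS events lay near one, against 28.6% of its positions. In H1-2, with 6 such pentamers, 33.2% of the pooled events lay near one, against 22.0% of positions. By library the H1-2 share was 17.9%, 38.2%, 0% and 31.4%, above that of its positions in replicates 2 and 4 only. By class, the pooled share was 32.5% in H1, 28.1% in H2A and 20.3% in H2B, above the 20.8%, 25.4% and 13.3% of their positions. In single libraries it lay above that of the positions in replicates 1, 2 and 4 for H1, in replicate 4 only for H2A and in replicates 2 to 4 for H2B. The pooled share was 14.0% in H3 and 13.3% in H4, below the 17.8% and 14.6% of their positions. The H3 and H4 shares rest on 7 of 50 CDS events in H3 and 10 of 75 in H4. By library, the H3 share lay above that of its positions in replicate 4 only. The H4 share lay above that of its positions in replicates 1, 2 and 4. In replicate 3 the H4 share was 0% of 19 CDS events, so the low pooled H4 value rested on that library.

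At the crosslinked position itself, adenine was frequent in histone CDS. It made up 37.9%, 28.9%, 46.1% and 29.1% of the events in replicates 1 to 4, above its 23.9% of histone CDS nucleotides in each library, although core histone CDS in replicate 4 was at 18.9%, below its 23.0%, and H1 CDS in replicate 2 was at 30.2%, close to its 30.4%. The 23.9% counts all CDS nucleotides alike, but H1, whose CDS is richer in adenine, held 713 of the 1142 CDS events. The excess over 23.9% therefore also reflects which genes held the events. Without replicate 3 the histone mean for adenine was 31.99% ± 5.14 (SD, n = 3). Thymine made up 19.3%, 17.8%, 6.58% and 17.2% of the histone events in replicates 1 to 4, against 15.8% of the nucleotides. Only replicate 3 lay below that share, and without it the mean was 18.1% ± 1.11 (SD, n = 3). In the other coding genes thymine made up 30.5%, 26.1%, 34.1% and 26.5% of the events, above its 21.8% in each library. Adenine was at 24.8%, 28.8%, 20.3% and 27.7% there, against 25.9% of the nucleotides, so it lay above its share in replicates 2 and 4. These shares were compared without a test.

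Among the 13 members with at least 20 events, 8 (61.5%) had their highest CPM in replicate 4, against 55.9% of all genes with at least 20 events. H1-4, H1-2 and H1-3 had 662, 317 and 100.2 CPM there, each above their values in replicates 1 to 3. H2BC5 was at 77.9 CPM in replicate 4 and at 2.99, 36.4 and 0 in replicates 1 to 3.

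Replication-independent histone genes, whose mRNAs are mostly polyadenylated and made outside S phase as well, had a median of 32.5 events over the gene span (12 genes). The median was 15 for all protein-coding genes and 6 for the members. H1-10, a linker histone, had 162 events, and MACROH2A1, an H2A variant with a macrodomain, had 136. Of 22 genes for factors that make, process, export, translate or degrade histone mRNAs, 6 (median of the list, 102.5 events) had 200 or more over the gene span, against 3.49% of all protein-coding genes, with no adjustment for span length. HNRNPU, a nuclear RNA-binding scaffold protein, had 1074 events over its span, CASP8AP2, needed for histone gene expression, had 294, and DHX9, an RNA helicase, had 291. Counts over the span are not levels per length. Both lists were chosen with earlier results of these data known, and the study itself names HNRNPU among its most bound RNAs. The share of the list with 200 or more events is therefore a description and no test.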

How the data were processed

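Crosslinking events were measured by iiCLIP in 4 libraries of HEK293T cells expressing PR100-FLAG. The deposited values are raw counts: for each strand and position, the number of unique cDNAs. The authors collapsed PCR duplicates by random barcode, mapped 100-nt reads with STAR to GRCh38 with Gencode 27 allowing 2 mismatches, kept uniquely mapping reads, and called clusters with iCount at a false discovery rate of 0.05 on each library and on the pooled counts, whose deposited values are sums of cDNA counts. The version of STAR and the shortest read kept are not given in the sources used here.

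Positions were placed on GRCh38 with the canonical transcripts of GENCODE 44, a later release. The mature mRNA of a member ran from the annotated start to 5 nt after a stem-loop searched for in the 200 nt after the stop codon. Densities were log2 ratios of events per kb with 0.5 events added, taken in each library and tested over the libraries with a sign-flip permutation test (exact, two-sided). Depth was 125694 to 604816 events per library, so a count of 0 allows 4.96 to 23.9 CPM, and intervals cover counting error only. Alternatives changed the libraries, counting, mappability, overlapping genes, UTR extent, comparison genes, motif window and thresholds. The named genes were the 3 members of each class with most events, the 5 with most CDS events per kb, those with a pooled cluster and the top 3 of each list, of which 1 gene is not reported here. Members and lists were chosen with earlier results of these data known. The pooled positions equalled the sum of the libraries in all member windows, a second count gave the same values for 69 of 69 members, and the ratios were tested on simulated data. The tools were scipy 1.17.1, pysam 0.24.0, pandas 2.3.3 and numpy 2.4.6 under Python 3.11.15, with matplotlib 3.10.9 for plots.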

Additional observations from a re-analysis of the deposited data

Results flagged for a closer look

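H4 held 31.0% of the histone events in replicate 3, far from its 3.01%, 6.20% and 4.10% in replicates 1, 2 and 4. H4C16 was at 119 CPM in replicate 3 and at 0, 13.2 and 5.57 CPM in replicates 1, 2 and 4. In these 2 of 34 sets of 4 values examined, 1 library stood far from the rest, and chance alone gives about 1 such set in 20. Replicate 3 had 4.2 events per histone position and the shortest random barcode, and the part of either in these values was not tested.

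On the strand opposite to the member mRNAs, which no comparison above used, there were 5 events in the 4 libraries together, against 1309 on the gene strand. They are given because they lie outside the data compared above. No control library was analysed, and nothing is read from this count.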

How the results depend on the processing

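The higher density in the CDS than in the stem-loop end, the higher density of H1 than of core histones and the GANGA ratio in histones kept their direction under each alternative run on them, without a library included (3.70 to 4.73 and 3.29 to 3.75 on the log2 scale for the first 2). The GANGA ratio, 0.35 over all libraries, ranged from 0.16 to 0.67 on leaving out 1 library. It was 0.12 without H1-4 and 0.88 for GAAGA alone. The histone share of the library, 1039 CPM, was 548 CPM without positions in another gene and 645 CPM without H1-4. The CDS to UTR ratio (0.69 to 0.93 on leaving out 1 library) was -0.091 against the 5′ UTR alone and, in an alternative chosen after seeing the data, -0.020 without the last 50 nt. The histone minus other gene difference (-0.73 to -0.38) was -1.41 without the last 50 nt, 0.79 against single-exon genes and 0.099 against replication-independent histones. The ratio of the CDS after its middle to that before it (-0.27 to 0.41 on leaving out 1 library) was 0.41 without replicate 3, 0.048 with positions counted once, 0.042 with members of at least 10 events and 0.13 without H1-4. The GANGA difference to other genes (-0.43 to 0.045) was 0.045 without replicate 3 and 0.019 for GAAGA alone. At unique positions H2B minus H4 was -0.095, H2A minus H2B was 0.79 and H2B minus H3 was 0.41. Members with 200 events numbered 2, and 1 to 2 on leaving out 1 library, 1 with positions counted once, 1 without positions in another gene and 16 at 20 events. Members with a cluster numbered 11, and 4 to 10 on leaving out 1 library and 3 at 20 cDNAs. The causes of these changes were not tested.

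Each ratio compared regions or genes within the same library, so the comparisons were paired by library from the start. Over the 4 libraries the depth limits single core genes, of which none had over 38 events, and the smallest p of 4 libraries is 0.125 by the exact test.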
